A study of Mus musculus with 11 samples.

Results

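Nat8f3, Nat8f5, Gng11, Serpind1 and Bfsp2 are 5 of the 20888 genes in a table of messenger RNA levels from the lumbar spinal cord of mice. They were selected on the contrast between MFN2-R94Q and nontransgenic (nTg) mice, where they were among the largest falls. That order of falls kept only genes called lower whose libraries did not overlap between those 2 groups. Their difference between those 2 groups is therefore a description here and was not tested. The study compared 3 genotype groups of C57BL/6 mice at 10 months of age: 3 nTg mice with no transgene, 3 MFN2-R94Q mice and 5 MFN2-R94Q:MFN1 mice. The title speaks of a mouse model of CMT2A, a form of Charcot-Marie-Tooth disease in which long axons degenerate, and the MFN2-R94Q:MFN1 mice carry MFN1 as well as the mutant MFN2. MFN1 and MFN2 are the mitofusins, GTPases that join the outer membranes of mitochondria. The sources used here name neither the promoters nor the founder lines of the transgenes, and no group carried MFN1 alone. The labels name no sex, batch or pairing of animals. Each library was taken as 1 animal, and replicate numbers only name libraries.

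Levels are in RPKM, read counts scaled by gene length and library depth, so levels of different genes can be set beside each other. The depth of the libraries, recovered from the steps of the lowest values, ranged from 30.7 to 72.0 M reads. Mfn2 averaged 45.9 ± 1.24 RPKM over the 3 nTg libraries, 46.3 ± 1.39 over the 3 MFN2-R94Q libraries and 45.2 ± 1.56 over the 5 MFN2-R94Q:MFN1 libraries (SD). Mfn1 averaged 24.9, 26.3 and 25.0 RPKM, with its 3 MFN2-R94Q libraries above all others by a small margin. Neither gene was past the threshold in any comparison, and the sources do not say whether transgene reads were counted in these rows, so they do not check the genotype labels. Genes were tested where they reached at least 0.5 RPKM in at least 3 libraries. All 5 genes were among the 14347 that did.

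The 5 genes come from unrelated families. Nat8f3 and Nat8f5 belong to the Nat8 family of N-acetyltransferases, enzymes of the endoplasmic reticulum that transfer an acetyl group from acetyl-CoA; the founding member, Nat8, acetylates cysteine conjugates in the last step of mercapturic acid formation. Gng11 encodes a gamma subunit of heterotrimeric G proteins, a small prenylated protein that pairs with a beta subunit and carries signals from receptors at the cell membrane. Serpind1 encodes heparin cofactor II, a secreted serpin that inhibits thrombin when bound to dermatan sulfate or heparin. Bfsp2 encodes phakinin, an intermediate filament protein best known from the beaded filaments of the lens, where it assembles with filensin, the product of Bfsp1.

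On the mouse build GRCm38, Nat8f3 lies on chromosome 6 at 85760631 to 85765767 and Nat8f5 on the same chromosome at 85817218 to 85820972, both inside a cluster of Nat8 genes. Gng11 lies on another stretch of chromosome 6, at 4003987 to 4008445. Serpind1 lies on chromosome 16 at 17331371 to 17343574, inside the span of Pi4ka (17280351 to 17406314). Bfsp2 lies on chromosome 9 at 103424924 to 103480405. Whether strand was used in counting is not given, so reads of Serpind1 and Pi4ka could be told apart only where their exons differ.

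The Nat8 genes raise a question of identity that the other 3 genes do not, because Nat8f3 has near copies in the cluster. The first 90 coding bases of 4 Nat8 genes, taken from GENCODE M21 transcripts on GRCm38 and read 5′ to 3′ from the start codon, are shown with capitals where a base differs from Nat8f3.
Nat8f3: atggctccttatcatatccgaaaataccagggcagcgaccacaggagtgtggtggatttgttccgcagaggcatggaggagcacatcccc
Nat8f6: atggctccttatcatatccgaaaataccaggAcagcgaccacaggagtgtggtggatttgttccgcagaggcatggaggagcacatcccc
Nat8f7: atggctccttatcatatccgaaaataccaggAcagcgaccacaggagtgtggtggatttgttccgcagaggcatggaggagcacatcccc
Nat8f5: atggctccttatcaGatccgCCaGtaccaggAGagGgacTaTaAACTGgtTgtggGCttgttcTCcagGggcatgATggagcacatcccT
Nat8f6 and Nat8f7 each differed from Nat8f3 at 1 of these bases, and Nat8f5 differed at 23. Over the whole coding sequence, Nat8f3 was identical to Nat8f6 at 99.7% of aligned bases and to Nat8f7 at 99.6%, against 68.1% for Nat8f5. Of all windows of 50 bases along the Nat8f3 transcript, 85.2% were also present in a transcript of Nat8f6 or Nat8f7. The share was 9.3% for Nat8f5 and 0 for Gng11, Serpind1 and Bfsp2. The Nat8f3 level is therefore uncertain in how its reads were divided among the 3 near copies, and it is followed below also as their sum.

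**Figure D1:**
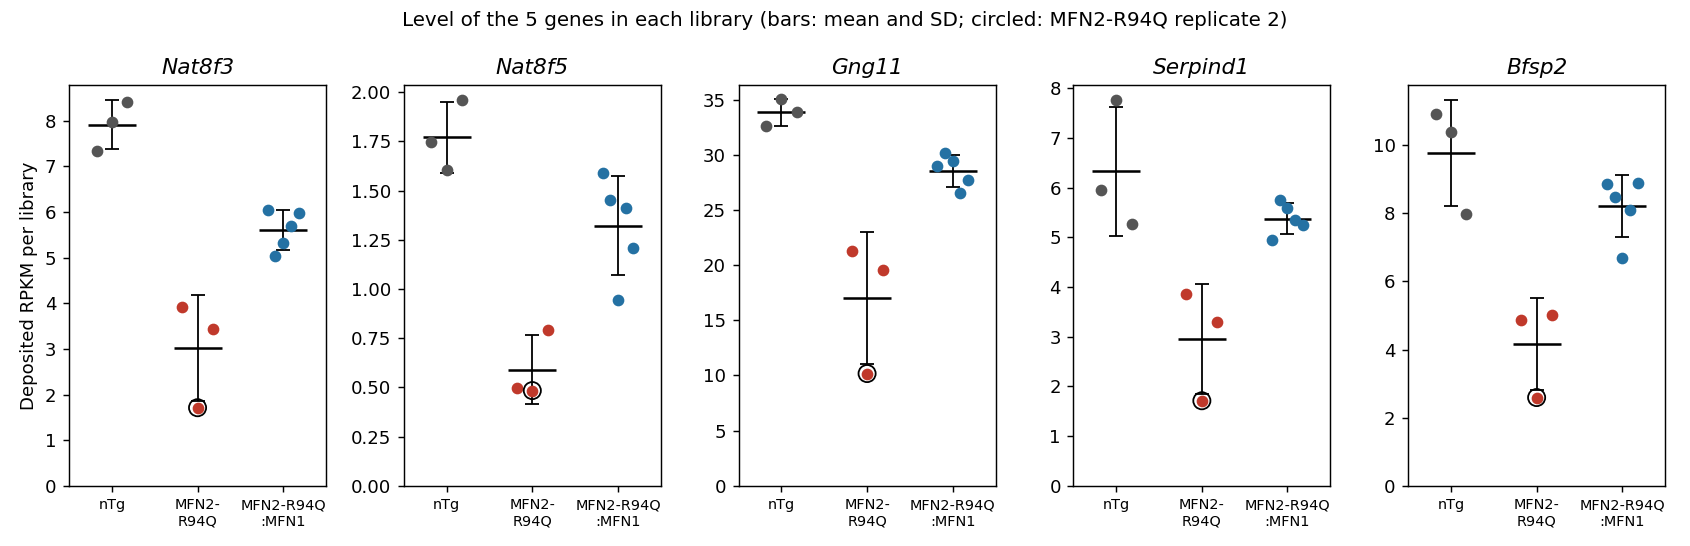
Deposited level of the 5 genes (vertical axis, RPKM, from 0) in every library, by genotype group (horizontal axis). Each point is 1 library, horizontal bars are group means and error bars are SDs (3, 3 and 5 libraries), and MFN2-R94Q replicate 2 is circled. The 3 MFN2-R94Q libraries lie below all others in every panel, with Gng11 between 10.2 and 21.3 RPKM there and at 26.5 RPKM or above elsewhere. Lack of overlap with nTg was a condition of the choice of genes.

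Nat8f3 was at 7.35, 7.98 and 8.41 RPKM in nTg replicates 1 to 3, at 3.93, 1.71 and 3.44 RPKM in MFN2-R94Q, and at 6.04, 5.03, 5.32, 5.69 and 5.97 RPKM in MFN2-R94Q:MFN1. The 3 groups did not overlap, and the MFN2-R94Q:MFN1 libraries lay between the other two groups. Nat8f5 had the lowest level of the 5 genes, at 1.74, 1.61 and 1.96 RPKM in nTg, 0.496, 0.484 and 0.793 RPKM in MFN2-R94Q, and 1.59, 1.45, 0.946, 1.41 and 1.21 RPKM in MFN2-R94Q:MFN1. Its groups did not overlap either, although the highest MFN2-R94Q:MFN1 library and the lowest nTg library were close. At these levels Nat8f5 rests on few reads: about 15 to 41 in the MFN2-R94Q libraries, from the depth and the length of its transcript, which gives a counting error of 26.0% at the lowest.

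Gng11, the G protein gamma subunit, had the highest level of the 5 genes. It was at 32.6, 35.1 and 33.8 RPKM in nTg, at 21.3, 10.2 and 19.5 RPKM in MFN2-R94Q and at 28.9, 30.2, 29.4, 26.5 and 27.7 RPKM in MFN2-R94Q:MFN1. The nTg and the MFN2-R94Q:MFN1 libraries were each close together, with coefficients of variation of 3.66% and 5.10%, against 35.1% in MFN2-R94Q. Serpind1, the thrombin inhibitor, was at 5.95, 7.76 and 5.26 RPKM in nTg, at 3.86, 1.71 and 3.29 RPKM in MFN2-R94Q and at 4.96, 5.74, 5.59, 5.36 and 5.25 RPKM in MFN2-R94Q:MFN1. Bfsp2 was at 10.9, 10.4 and 7.98 RPKM in nTg, at 4.87, 2.59 and 5.01 RPKM in MFN2-R94Q and at 8.87, 8.49, 6.68, 8.08 and 8.89 RPKM in MFN2-R94Q:MFN1. For Serpind1 and Bfsp2 the MFN2-R94Q:MFN1 libraries overlapped nTg, and the MFN2-R94Q libraries stood below both groups.

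By group mean, the 5 genes stood in MFN2-R94Q at 33.4% (Nat8f5), 38.2% (Nat8f3), 42.6% (Bfsp2), 46.7% (Serpind1) and 50.2% (Gng11) of their nTg level. On the log2(RPKM + 0.5) scale of the fit, which understates the change of low genes, the differences were -1.31 for Nat8f3, -1.18 for Bfsp2, -1.07 for Nat8f5, -1.04 for Gng11 and -1.02 for Serpind1. These hold places 2, 3, 8, 9 and 10 in an order of falls that was not over all genes tested. It kept genes called lower by limma, with no overlap of the groups and a minimum mean level in nTg. Predicted genes, small RNA genes and genes of the X and Y chromosomes were left out. The next gene in that order, the histone gene Hist1h4h at place 11, also differed by -1.02 (2.84 against 1.15 RPKM). Of all genes tested, 17.9% were called in this comparison by limma at an adjusted p of 0.05, 10.4% lower and 7.5% higher. The share that was lower with no overlap of the groups was 19.1%. Nothing is read from the members against these shares, since this contrast chose them.

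The MFN2-R94Q libraries were not alike. Replicate 2 was the lowest of its group for all 5 genes, by 0.21 (Nat8f5) to 0.97 (Gng11) below the mean of the other two libraries on the log2 scale. Without it, the differences from nTg were -1.01 for Nat8f3, -0.998 for Nat8f5, -0.90 for Bfsp2, -0.73 for Serpind1 and -0.72 for Gng11. Replicates 1 and 3 still lay below every nTg library for each gene. Lack of overlap with nTg was a condition of the choice of genes, so it does not show how steady the fall was.

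All 5 genes rose in MFN2-R94Q:MFN1 mice against MFN2-R94Q mice. The 2 groups did not overlap for any of them, where 13.1% of all genes tested were higher with no overlap. By limma, 5 of 5 were called higher and 0 lower, beside 9.55% and 3.33% of all genes. This comparison shares the 3 MFN2-R94Q libraries with the one that chose the genes, so a rise is not independent of the choice. Bfsp2 rose from 4.16 ± 1.36 RPKM (SD, n = 3) to 8.20 ± 0.912 (SD, n = 5), a log2 difference of 0.94 with a standard error of 0.167 (1.92-fold, limma adjusted p = 0.00516). Nat8f3 rose from 3.03 ± 1.16 to 5.61 ± 0.431 RPKM, with a log2 difference of 0.85 ± 0.166 (SE, limma adjusted p = 0.00804). Serpind1 rose from 2.96 ± 1.11 to 5.38 ± 0.305 RPKM and Gng11 from 17.0 ± 5.97 to 28.6 ± 1.46 RPKM, with log2 differences of 0.82 ± 0.174 and 0.80 ± 0.167 (SE, limma adjusted p = 0.0113 and 0.0109). Nat8f5 rose from 0.591 ± 0.175 to 1.32 ± 0.251 RPKM, a log2 difference of 0.74 ± 0.122 (SE, limma adjusted p = 0.00358). The two-sided exact permutation test over libraries gave 0.0179 for each gene, the smallest p that 56 splits allow.

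The sizes rested in part on MFN2-R94Q replicate 2. Without it the log2 differences were 0.67 for Bfsp2 and Nat8f5, 0.55 for Nat8f3, 0.53 for Serpind1 and 0.47 for Gng11. All 5 genes stayed past the threshold in that fit, with limma adjusted p-values from 0.000383 (Gng11) to 0.0134 (Serpind1). Nat8f5 moved least, and its MFN2-R94Q replicates 1 and 2 were at nearly the same level.

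None of the 5 genes was called different between MFN2-R94Q:MFN1 and nTg mice in the fit of all 11 libraries, where 2.31% of all genes were called, 2.09% higher and 0.223% lower. At an unadjusted p of 0.05, limma gave 2 of the 5, Nat8f3 and Nat8f5. The nTg libraries also entered the choice of the genes. Each mean was nevertheless lower with MFN1 than in nTg, at 70.9% for Nat8f3, 74.6% for Nat8f5, 84.0% for Bfsp2, 84.4% for Gng11 and 85.0% for Serpind1. The log2 difference was -0.46 for Nat8f3, with a 95% interval of -0.82 to -0.10 (limma adjusted p = 0.199). It was -0.33 for Nat8f5, with an interval of -0.59 to -0.06 (limma adjusted p = 0.220). For Gng11 it was -0.24 (-0.60 to 0.12), for Bfsp2 -0.23 (-0.60 to 0.13) and for Serpind1 -0.20 (-0.58 to 0.18), with limma adjusted p-values of 0.535, 0.550 and 0.630. The intervals of those 3 genes include 0 and do not show that the levels were the same.

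For Nat8f3 and Gng11 this comparison turned on the MFN2-R94Q libraries, which are in neither group but widen the shared estimate of spread. All 5 MFN2-R94Q:MFN1 libraries lay below all 3 nTg libraries for Nat8f3, Nat8f5 and Gng11, where 5.05% of all genes tested were lower and 9.03% higher with no overlap. With only these 2 groups in the fit, Nat8f3 (limma adjusted p = 0.00149) and Gng11 (0.00783) were called lower and the other 3 genes were not. Leaving out MFN2-R94Q replicate 2 alone gave the same 2 calls, with limma adjusted p = 0.00127 for Nat8f3 and 0.00803 for Gng11. The two-sided exact permutation test gave 0.0179 for Nat8f3 and Gng11, 0.0536 for Nat8f5, 0.107 for Serpind1 and 0.179 for Bfsp2.

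**Figure D2:**
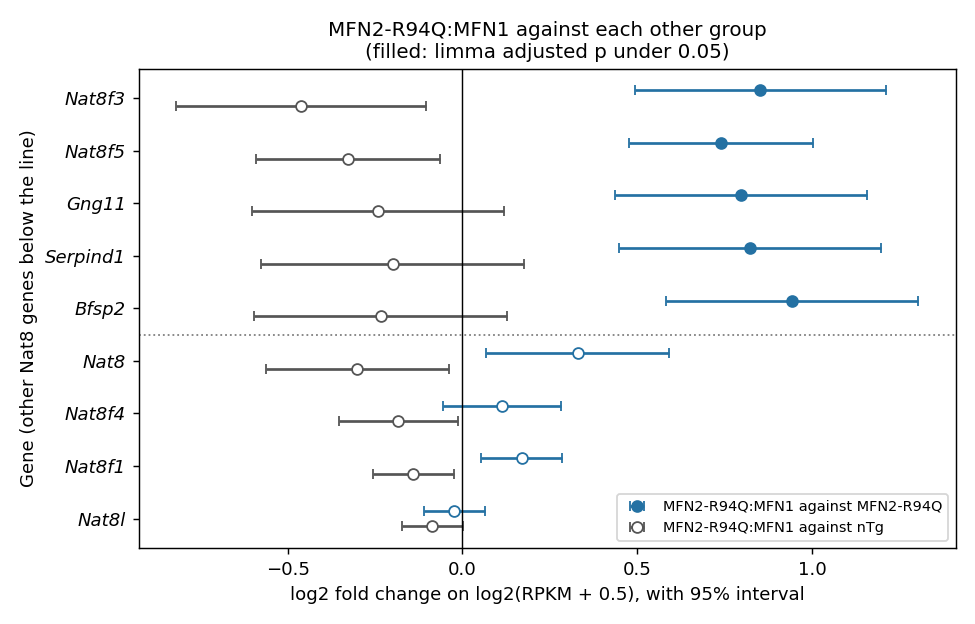
Log2 difference of MFN2-R94Q:MFN1 from each of the other groups (horizontal axis, on log2(RPKM + 0.5)) for the 5 genes and, below the dotted line, other tested Nat8 genes. Points are limma estimates from all 11 libraries, bars are 95% intervals and filled points passed an adjusted p of 0.05. The 5 genes are filled only against MFN2-R94Q, between 0.74 and 0.94, and lie between -0.46 and -0.20 against nTg.

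The distance between the MFN2-R94Q mean and the nTg mean gives a scale on which each MFN2-R94Q:MFN1 library can be placed, with 0% at MFN2-R94Q and 100% at nTg, on log2 values. Both ends come from the contrast that chose the genes, so a place between them is not independent of the choice. The 5 libraries stood on average at 64.8% for Nat8f3 (range 54.1% to 72.5%), 69.4% for Nat8f5 (39.2% to 89.2%) and 76.7% for Gng11 (66.8% to 84.5%). For Bfsp2 they stood at 80.2% (lowest 57.2%, median 84.7%) and for Serpind1 at 80.4% (70.1% to 89.0%). The ranges of the 5 genes overlapped, so an order among them is not shown by these libraries. Without MFN2-R94Q replicate 2 the averages were 54.1% for Nat8f3, 66.2% for Gng11, 67.2% for Nat8f5, 72.6% for Serpind1 and 74.2% for Bfsp2.

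Nat8f3 was also added to its near copies, whose transcripts differ somewhat in length (1821 bases for Nat8f3, 1571 for Nat8f6 and 1822 for Nat8f7). Nat8f6 averaged 0.423, 0.108 and 0.184 RPKM in nTg, MFN2-R94Q and MFN2-R94Q:MFN1, below the level needed for a test. Nat8f7 averaged at most 0.0783 RPKM, with 1 library at 9.12e-21 RPKM. Nat8f3, Nat8f6 and Nat8f7 together made 8.40 ± 0.626 RPKM in nTg, 3.20 ± 1.09 in MFN2-R94Q and 5.87 ± 0.504 in MFN2-R94Q:MFN1 (SD over 3, 3 and 5 libraries). Nat8f3 was 94.2% to 95.5% of the sum, and the sum stood at 38.1% and 69.9% of nTg, close to the values of Nat8f3 alone.

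**Figure D3:**
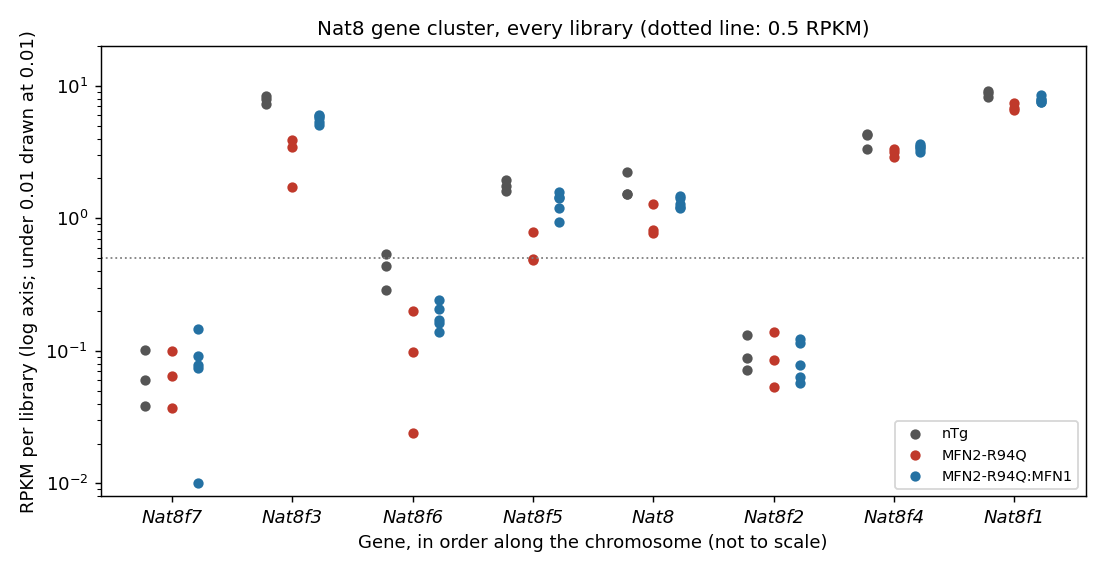
Level of the 8 genes of the Nat8 cluster in every library (vertical axis, RPKM, log scale), in their order along the chromosome but not to scale. Each point is 1 library, the dotted line marks 0.5 RPKM, and a Nat8f7 value too low for the axis is drawn at its foot. Nat8f3, Nat8f5 and Nat8f1 have their MFN2-R94Q libraries below all others, while Nat8f4, at 3.98, 3.13 and 3.43 RPKM, has nTg and MFN2-R94Q libraries that overlap.

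Other genes of the Nat8 family that were tested were 4, and 3 of them fell in MFN2-R94Q against nTg. Nat8, next to Nat8f5 in the cluster, fell by 0.63 on the log2 scale (limma adjusted p = 0.00928), from 1.76 ± 0.402 to 0.960 ± 0.276 RPKM (SD). That call was lost with only the 2 groups compared in the fit (adjusted p = 0.0531), also without MFN2-R94Q replicate 2 (0.0671). Nat8f1 fell by 0.31 (limma adjusted p = 0.00616), from 8.74 to 6.96 RPKM. Nat8f4 fell by 0.30 (limma adjusted p = 0.0346), a call that was lost without nTg replicate 2 (adjusted p = 0.131) or 3 (0.116) or MFN2-R94Q replicate 1 (0.0507) or 2 (0.105). Nat8l lies on another chromosome and makes N-acetylaspartate, and it averaged 155, 149 and 146 RPKM in the 3 groups, with no call (log2 -0.06 in MFN2-R94Q against nTg, limma adjusted p = 0.354). None of these 4 genes was called in MFN2-R94Q:MFN1 against either group, where Nat8 differed from MFN2-R94Q by 0.33 (limma adjusted p = 0.0893) and Nat8f1 by 0.17 (0.0561). At an unadjusted p of 0.05, limma gave these 2 genes against MFN2-R94Q, and Nat8, Nat8f1 and Nat8f4 lower against nTg. Whether Nat8f3 and Nat8f5 differ from the other Nat8 genes in their response was not tested.

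Genes around the Nat8 family in metabolism were described by their calls. A mixed list of 10 genes covered acetyl-CoA supply and transport and lysine acetylation in the endoplasmic reticulum. It held Slc33a1, Bace1, Atg9a, Calr, Hspa5, Aspa, Slc13a3, Acly, Acss2 and Acss1, and not all of these act in the endoplasmic reticulum. Aspa is also among the mature oligodendrocyte markers used below. Of the 10 genes, 6 fell and 0 rose in MFN2-R94Q against nTg, with a median log2 difference of -0.17 against 0.00 over all genes. Of all genes tested, 10.4% fell and 7.5% rose in that comparison. Without MFN2-R94Q replicate 2, 4 of the 10 fell and 0 rose. Slc13a3, a transporter of dicarboxylates and N-acetylaspartate, fell by 0.48 (limma adjusted p = 0.00306), and it rose by 0.58 with MFN1 (limma adjusted p = 0.000717). Calr, a chaperone of the endoplasmic reticulum, fell by 0.60 (limma adjusted p = 0.00340). With MFN1, 4 of the 10 rose against MFN2-R94Q, but only 1 did without MFN2-R94Q replicate 2. Of 15 glutathione and mercapturate genes, 3 rose and 4 fell in MFN2-R94Q, among the latter the glutathione transferase Gstt1 (log2 -0.43, limma adjusted p = 0.00306) and the aminoacylase Acy1 (-0.35, limma adjusted p = 0.0102, but 0.0565 with only the 2 groups compared). Ggt5 rose by 0.46 (limma adjusted p = 0.0110). Gstp1 rose by 0.22 (limma adjusted p = 0.0113, but 0.0507 with only the 2 groups compared).

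Gng11 works as part of a family of G protein subunits that differ by cell type. Of 14 other gamma and beta subunit genes, 1 rose and 2 fell in MFN2-R94Q against nTg (0 and 1 without MFN2-R94Q replicate 2), with a median log2 difference of -0.10. Gng5, another gamma subunit, fell by 0.24 (limma adjusted p = 0.0131), to 84.7% of its nTg mean, and rose by 0.29 with MFN1 (limma adjusted p = 0.00403). Gngt2 rose by 0.61 with MFN1 (limma adjusted p = 0.00464), from 0.960 to 1.74 RPKM. Against MFN2-R94Q, 3 of the 14 rose and 1 fell with MFN1 (3 and 0 without MFN2-R94Q replicate 2). Of 18 genes of alpha subunits and regulators, 1 rose and 3 fell in MFN2-R94Q, and 3 rose with MFN1. Of the neighbours of Gng11, Gngt1 and Tfpi2 averaged at most 0.0616 RPKM, and Bet1 and Col1a2 were called in no comparison.

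Serpind1 was set beside the genes of thrombin, its inhibitors and its receptors. Of 10 others tested, 1 rose and 2 fell in MFN2-R94Q against nTg, and the median log2 difference was 0.02. Without MFN2-R94Q replicate 2, 0 of the 10 were called in that comparison by limma. Thbd, the endothelial thrombin receptor thrombomodulin, fell by 0.62 (limma adjusted p = 0.0163) and rose by 0.55 with MFN1 (limma adjusted p = 0.0216). The fall of Thbd was lost with only the 2 groups compared in the fit (adjusted p = 0.0667), without nTg replicate 2 (adjusted p = 0.0593) or MFN2-R94Q replicate 2 (0.0544), and its rise without the latter library (0.0889) or with no filter on low values (0.0616). Pros1, the anticoagulant protein S, was higher in MFN2-R94Q than in nTg by 0.22 (limma adjusted p = 0.0213, but 0.0874 with only the 2 groups compared). In MFN2-R94Q:MFN1 it was higher than in nTg by 0.31 (limma adjusted p = 0.00516). Between MFN2-R94Q:MFN1 and MFN2-R94Q it was not called (log2 0.09, limma adjusted p = 0.269). Of 19 genes that build or carry dermatan and heparan sulfate, the chains that activate heparin cofactor II, 2 rose and 2 fell in MFN2-R94Q, and 3 rose and 1 fell with MFN1. Without MFN2-R94Q replicate 2, 2 rose and 0 fell with MFN1. Pi4ka, whose span holds Serpind1, averaged 39.4, 37.9 and 37.4 RPKM in nTg, MFN2-R94Q and MFN2-R94Q:MFN1 and was called in no comparison, nor were the nearest measured genes Hic2, Tmem191c, Snap29 and Crkl.

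Among 10 other serpins, 1 rose and 3 fell in MFN2-R94Q. Serpinb1a, an intracellular inhibitor of neutrophil proteases, fell by 0.94 (limma adjusted p = 0.0118), from 22.8 ± 2.15 to 12.3 ± 4.94 RPKM (SD), and rose by 0.78 with MFN1 (limma adjusted p = 0.0207). Without MFN2-R94Q replicate 2 the 2 differences of Serpinb1a were -0.58 and 0.42, both still past the threshold. The fall was lost with only the 2 groups compared in the fit (adjusted p = 0.0656) and the rise with no filter on low values (0.0671). Serpina3n, an acute-phase serpin of reactive astrocytes, moved the other way, with a log2 rise of 0.58 in MFN2-R94Q (limma adjusted p = 0.00306).

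Bfsp2 was set beside lens and intermediate filament genes. Bfsp1 averaged 0.475, 0.585 and 0.555 RPKM in nTg, MFN2-R94Q and MFN2-R94Q:MFN1, below Bfsp2 in every group, and was called in no comparison. Of 7 other tested lens genes, 1 fell in MFN2-R94Q and 1 rose with MFN1, and both calls were Cryab, a small heat shock protein that oligodendrocytes also make. Cryab fell by 0.69, from 157 ± 11.4 to 98.6 ± 19.7 RPKM (SD, limma adjusted p = 0.00328), and rose by 0.55 with MFN1 (limma adjusted p = 0.00598). Among 13 intermediate filament genes of the cord, 2 rose and 5 fell in MFN2-R94Q. The 2 that rose were Vim (log2 0.78, limma adjusted p = 0.00213) and Gfap (0.52, limma adjusted p = 0.00102), filament genes of reactive astrocytes, which rose further with MFN1. The span of Bfsp2 is overlapped by 5830418P13Rik, which averaged at most 0.0658 RPKM in a group and was not tested. Of the neighbours outside that span, Tmem108 lies nearest, 2531 bases away. Tmem108 fell by 0.19 in MFN2-R94Q (limma adjusted p = 0.0302) and rose by 0.16 with MFN1 (limma adjusted p = 0.0475). Its fall was lost without MFN2-R94Q replicate 2 and without nTg replicates 2 or 3 (adjusted p up to 0.118), and its rise without any of 8 of the 11 libraries (up to 0.166). Topbp1 rose by 0.17 in MFN2-R94Q (limma adjusted p = 0.0460), a call lost without any of 10 of the 11 libraries (up to 0.151), and Cdv3 was called in no comparison.

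Genes with patterns most like the members were found by the root mean square difference between centred log2(RPKM + 0.5) values over the 11 libraries, in which 0 means the same pattern. Among the members, Gng11 and Serpind1 were most alike (0.116) and Nat8f5 and Serpind1 least (0.306). Serpinb1a was the gene nearest to Gng11 (0.083) and to Serpind1 (0.091). Eml1, which encodes a microtubule-binding protein, was at 0.094 from Gng11 and 0.176 from Nat8f3. The genes nearest to Nat8f5 were farther off: Ppp1r14a, an inhibitor of myosin phosphatase, at 0.197, Tmem254c at 0.198 and Frmd8 at 0.202. The nearest to Bfsp2 were Gng11 (0.174), Serpind1 (0.175) and Serpinb1a (0.181). MFN2-R94Q replicate 2 was the lowest library of each gene named here.

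**Figure D4:**
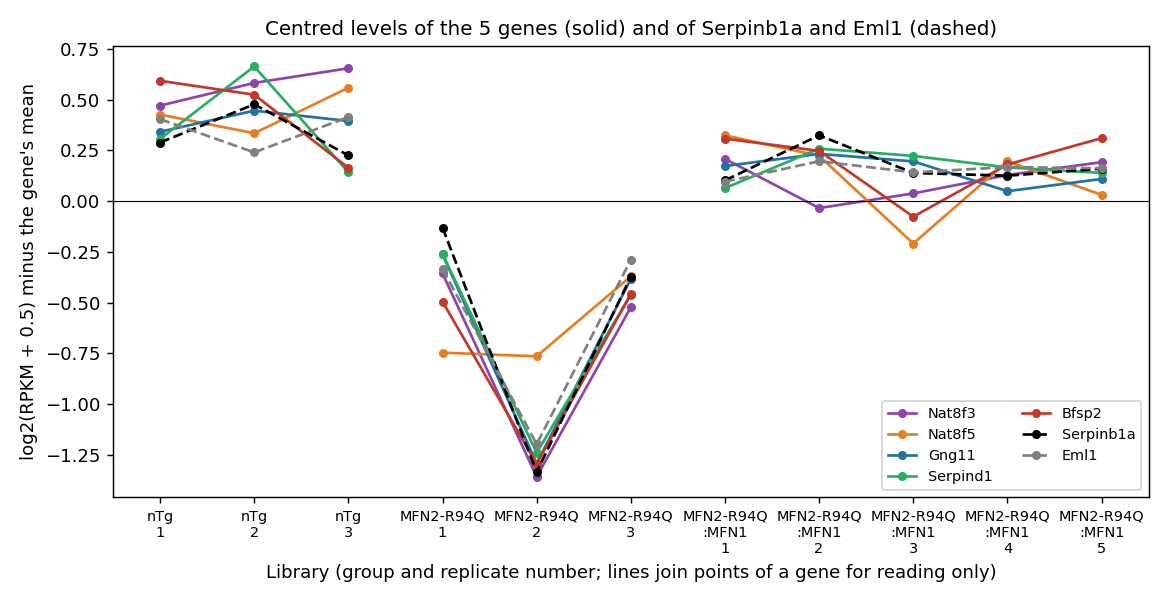
Log2(RPKM + 0.5) minus the gene's mean over 11 libraries (vertical axis) in each library (horizontal axis) for the 5 genes (solid lines) and for Serpinb1a and Eml1 (dashed lines). Lines join the points of a gene for reading only. MFN2-R94Q replicate 2 is the lowest point of all 7 genes, and Nat8f5 is the only one with MFN2-R94Q replicate 1 nearly as low.

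Bulk RNA from cord tissue cannot tell fewer cells of a type from less RNA per cell. Some markers of oligodendrocytes moved in the same direction as the 5 genes. Of 15 mature oligodendrocyte markers, 7 fell and 1 rose in MFN2-R94Q against nTg, beside 10.4% and 7.5% of all genes tested. With MFN1, 9 rose and 0 fell against MFN2-R94Q, beside 9.55% and 3.33% of all genes. Without MFN2-R94Q replicate 2, 5 fell and 1 rose in MFN2-R94Q, and 7 rose with MFN1. Their summed level was 4885 to 5333 RPKM in nTg, 4124 to 4638 in MFN2-R94Q and 5080 to 5390 in MFN2-R94Q:MFN1, with no overlap between MFN2-R94Q and the others. Among the 7 markers that fell, Trf, the transferrin of oligodendrocytes, was lower by 0.80 (limma adjusted p = 0.00306) and Mag, a myelin adhesion protein, by 0.35 (limma adjusted p = 0.00306). The sum of 13 markers of precursors and newly formed oligodendrocytes was 391.2 to 446.3 RPKM in nTg, 283.2 to 348.7 in MFN2-R94Q and 381.2 to 411.4 in MFN2-R94Q:MFN1, with 5 markers lower and 1 higher in MFN2-R94Q. 

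Endothelial markers moved in part: of 17, 7 fell and 2 rose in MFN2-R94Q, and 6 rose with MFN1, which was 0 without MFN2-R94Q replicate 2. Their summed level overlapped between the groups (216.0 to 221.8, 201.8 to 234.6 and 206.5 to 226.9 RPKM). All 11 tested markers of microglia and macrophages rose in MFN2-R94Q:MFN1 against MFN2-R94Q, and their sum of 13 was 238.2 to 250.3 RPKM in nTg, 249.5 to 268.4 in MFN2-R94Q and 347.5 to 394.7 in MFN2-R94Q:MFN1. The sum of 12 markers of meninges and fibroblasts was 302.3 to 349.2 RPKM in nTg, 466.0 to 829.9 in MFN2-R94Q and 344.0 to 534.1 in MFN2-R94Q:MFN1. Most of that sum was Ptgds, which averaged 315.7, 604.2 and 381.0 RPKM in the 3 groups. Of 10 tested markers of this list, 1 (Ptgds) rose and 0 fell in MFN2-R94Q against nTg. Their median log2 difference was -0.01. The sum of 13 neuron markers was 1797 to 1846, 1699 to 1799 and 1758 to 1809 RPKM. The sum of 13 astrocyte markers was 1826 to 1859, 1857 to 2143 and 1861 to 1916 RPKM, and that of 10 ependyma markers 29.9 to 32.3, 26.0 to 26.7 and 30.4 to 34.3 RPKM. Like the oligodendrocyte sums, the ependyma sum was lower in MFN2-R94Q with no overlap with the others. Of 9 tested ependyma markers, 2 fell and 0 rose in MFN2-R94Q against nTg, and 3 rose with MFN1. Schwann cell, pericyte and blood markers had summed levels that overlapped between nTg and MFN2-R94Q. The pericyte sum was 60.23 to 65.43 RPKM in nTg and 55.16 to 64.67 in MFN2-R94Q. In MFN2-R94Q:MFN1 it was 66.13 to 71.91 RPKM, with no overlap with either. Of its 11 tested markers, 1 rose and 0 fell with MFN1 against MFN2-R94Q. The Schwann cell sum was 1708 to 1895 RPKM in nTg, 1553 to 1721 in MFN2-R94Q and 1723 to 2072 in MFN2-R94Q:MFN1. It includes Mbp, which is also in the mature oligodendrocyte list. No marker was at 0 in a whole group. The part of any of these marker lists in the levels of the 5 genes was not tested.

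Promoter sequences, from 250 bases before to 50 bases after the start of transcription, were present for 4 of the 5 genes in RefSeq tables on GRCm38.p6. A search on both strands covered the TATA box (TATAAA), the CCAAT box (CCAAT), the GC box (GGGCGG), an E-box (CACGTG) and a glucocorticoid receptor motif (AGAACA). Matches were found only in Nat8f5 (1 CCAAT) and Bfsp2 (1 CCAAT and 1 AGAACA), whose promoters are printed 5′ to 3′ on the strand of the gene, with the matches in capitals.
Nat8f5, chr6:85820923-85821222, minus strand: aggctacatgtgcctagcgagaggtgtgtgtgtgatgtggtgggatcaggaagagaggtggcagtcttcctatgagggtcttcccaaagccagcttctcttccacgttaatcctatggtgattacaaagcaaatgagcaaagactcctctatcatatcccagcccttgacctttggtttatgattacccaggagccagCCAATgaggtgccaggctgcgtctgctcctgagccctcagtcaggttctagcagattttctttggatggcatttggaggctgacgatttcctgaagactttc
Bfsp2, chr9:103449127-103449426, minus strand: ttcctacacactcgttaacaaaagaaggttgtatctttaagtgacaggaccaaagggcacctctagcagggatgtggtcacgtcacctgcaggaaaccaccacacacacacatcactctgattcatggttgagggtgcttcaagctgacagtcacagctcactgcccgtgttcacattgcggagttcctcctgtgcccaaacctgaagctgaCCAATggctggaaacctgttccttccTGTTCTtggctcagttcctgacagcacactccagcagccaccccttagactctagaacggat
In Bfsp2 the match to AGAACA lies on the opposite strand. Of 32851 promoters of this length, 37.4% held the CCAAT box, 19.0% the glucocorticoid receptor motif, 35.7% the GC box, 13.6% the TATA box and 7.2% the E-box. The RefSeq start used for Bfsp2 lies inside the span of the gene given above. CpG pairs numbered 11 in Nat8f3, 4 in Nat8f5, 2 in Serpind1 and 5 in Bfsp2, against a median of 7.0 over all promoters.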

How the data were processed

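Poly(A) RNA of lumbar cord was sequenced from 11 mice with a stranded kit, per the labels. The authors deposited RPKM values for 20888 genes, made with TopHat and Partek 7.17.0918 on mm10, per the submitters' processing notes. The annotation, strand setting and treatment of shared reads are not stated there.

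limma 3.58.1 in R 4.3.3 (eBayes with trend) was fitted to log2(RPKM + 0.5) of the 14347 genes that reached 0.5 RPKM in 3 or more libraries, all groups in 1 fit with genotype as the only term. Tests were two-sided with Benjamini-Hochberg adjustment over all genes tested and a threshold of 0.05. On simulated data with 200 changed genes, log2 changes of 0.5 were found in 88% (MFN2-R94Q against nTg), 93.5% (with MFN1, against MFN2-R94Q) and 88.5% (with MFN1, against nTg), and 9.28%, 2.60% and 2.75% of the calls were false. In the same order, changes of 1 were found in 98.5%, 99.5% and 98.5%, with 7.08%, 6.57% and 4.83% false. The simulated noise was independent between genes and had the same SD in every group. The real groups differed in spread, as for Gng11 with a coefficient of variation of 35.1% in MFN2-R94Q and 3.66% in nTg. These rates may therefore not hold for the real data. Depth came from short RNA genes, where 96.4% to 100.0% of the low values used per library were whole multiples of 1 read within 0.02. Alternatives covered pseudocount, filter, scaling, groups fitted, library weights and each library left out.

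The members and gene lists were chosen with earlier results of these data known. Of each list, up to 4 members with the smallest p were named, with nearest neighbours and most similar genes. Some genes that this rule took are not reported here.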

Additional observations from a re-analysis of the deposited data

Results flagged for a closer look

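None of the 5 genes had a library standing apart within the MFN2-R94Q:MFN1 group, the only group large enough for the check. Among 70 genes looked at, 6 did, where chance gives about 1 in 20. The gap of 1 library to the next was over 0.71 of the group's range in each. In Serpinb1a the highest library was at 22.67 RPKM and the next at 20.18. In Alms1, next to the Nat8 cluster, it was at 1.789 RPKM against 1.539. In Tmem191c, near Serpind1, it was at 14.17 RPKM against 13.44. Olig1 reached 88.13 RPKM with the next library at 80.36, and Prph reached 39.02 RPKM with the next at 36.55. In Slc13a3 the lowest library was at 5.847 RPKM and the next lowest at 6.552.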

How the results depend on the processing

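No paired analysis was possible because the labels give no replicate numbers. The rise of the 5 genes in MFN2-R94Q:MFN1 against MFN2-R94Q stayed past the threshold for all 5 in every alternative run. Every run used MFN2-R94Q libraries that also chose the genes, so this steadiness is not independent of the choice. Between MFN2-R94Q:MFN1 and nTg, 0 of 5 were called in the fit of all 11 libraries, 2 with only the 2 groups compared, 1 with library weights (Nat8f3, adjusted p = 0.0206), 2 by the exact permutation test and 0 to 2 with each library left out, the 2 without MFN2-R94Q replicate 2. The median difference of the 5 genes in MFN2-R94Q against nTg was -1.07 and ranged from -1.23 to -0.90 with a library left out, and that of Nat8f5 was -1.46 with a pseudocount of 0.1 and -0.80 with 1. Counts over all genes moved more. For MFN2-R94Q against nTg, 2561 were called, 844 with only the 2 groups and 1213 to 2857 with a library left out. For MFN2-R94Q:MFN1 against MFN2-R94Q, 1848 were called, 1198 with no filter, 3378 with library weights and 882 to 2217 with a library left out. For MFN2-R94Q:MFN1 against nTg, 332 were called, 565 with only the 2 groups, 590 with library weights and 189 to 589 with a library left out. Without MFN2-R94Q replicate 2 and with only the 2 groups, chosen after seeing the data, the 3 counts were 1155, 784 and 565, and 2 of the 5 genes were called in the last. Why these counts moved was not tested. The weights did not converge fully. Depth limits Nat8f5 most, and intervals rest on 3 libraries in nTg and MFN2-R94Q.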
